A study of Mus musculus with 23 samples.

Results

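The comparison described here set Ddit4-/- mice against wild-type mice after a fast and doxorubicin, over 8 of the 23 libraries in the series. These 8 libraries were chosen by their labels for fed state and drug, and they form 4 pairs, 1 wild-type and 1 Ddit4-/- library at each of 2, 6, 12 and 24 h after the drug. All 8 came from male mice that had been deprived of food for 24 h, were injected with doxorubicin (20 mg/kg, into the peritoneal cavity) and had been refed for 2, 6, 12 or 24 h at harvest, and the RNA was extracted from whole proximal small intestine. Age, strain and how the Ddit4 allele was made are not given in the sources used here. No genotype had more than 1 library at any time, so the 4 pairs stood in for replicates. The p-values set the mean difference of the 4 pairs against a spread between pairs that was estimated over all 23 libraries together. Another 2 sets from the series entered that estimate and were used to place the values: 3 pairs given doxorubicin after ad libitum feeding (6, 12 and 24 h) and 4 untreated pairs (fed, fasted, and refed for 2 or 6 h).

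The labels of the 4 wild-type libraries conflict, since their drug field names doxorubicin while their titles say untreated; the drug field was used. If the titles held, genotype and drug could not be told apart in any value below. Cdkn1a, the p53 target that arrests the cell cycle, gives a measure of drug action. It stood at 8133, 4848, 9450 and 7198 normalized reads at 2, 6, 12 and 24 h in these wild-type libraries, and at 5474 and 5695 in the wild-type libraries labelled untreated and refed for 2 and 6 h. Averaged over 39 p53 targets, expression relative to the series mean was 0.10, 0.00, 0.18 and 0.35 (log2) in the 4 wild-type libraries in question, against -0.09 and -0.68 in those 2 untreated ones and 0.13 to 0.65 in the 4 wild-type libraries given doxorubicin after ad libitum feeding. By the list the library with the conflicting title lay above the untreated one at both times, while by Cdkn1a it lay above at 2 h and below at 6 h. The untreated wild-type library at 6 h also holds pancreatic transcripts (acinar markers at a mean log2 of 12.47), and untreated libraries at 12 and 24 h were not analysed here.

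Ddit4, also called REDD1, is induced by fasting, low oxygen, glucocorticoids and DNA damage, and it restrains mTORC1, the kinase complex that couples nutrients to protein and lipid synthesis. It acts through the TSC complex, which switches off the GTPase Rheb. Doxorubicin is a DNA-damaging chemotherapy drug that kills dividing cells of the intestinal crypt, and p53 is the main regulator of the response to it. The proximal small intestine is made up mostly of absorptive enterocytes, and its epithelium also holds goblet, Paneth, tuft and enteroendocrine cells and many resident lymphocytes.

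The targeted gene matched the genotype labels in all 8 libraries. Ddit4 (mm10, chr10:59949669-59951834, minus strand, 3 exons) had 375, 66.9, 379 and 329 normalized reads in wild type at 2, 6, 12 and 24 h, and 2.21, 4.77, 0 and 0 in Ddit4-/-. The 2 nonzero knockout values correspond to 2 and 4 reads, and the wild-type library at 6 h was the lowest of its group. A normalized read is a read count divided by 1 scaling factor for its library, and 1 read was worth 0.81 to 1.39 of them here. The log2 difference on the log2(value + 1) scale was -6.84 ± 0.74 (standard error, limma, Benjamini-Hochberg adjusted p = 0.0024); with 2 knockout libraries at 0, its size depends on the 1 that was added. Log2 differences below are on the same scale and from the same fit. Libraries held 12501432 to 23428519 reads in 12951 to 14057 genes, and all 8 had Y-linked reads (1286 to 2019). Enterocyte markers were high throughout, and the wild-type library at 24 h also held B cell markers at a summed 388 normalized reads against 17.5 to 107 in the other 7, and pancreatic acinar markers at 3110 against 247 to 407.

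Across all genes, few differences were large enough, against the spread shared by the 3 sets of pairs, to pass the test. Of 11939 genes tested, 7 rose in Ddit4-/- (0.0586%) and 3 fell (0.0251%), 10 in all (0.0838%), while 1002 (8.39%) had an unadjusted p under 0.05. The rises included Cd74, H2-Ab1, Slfn2, Nfkbiz, Prss32 and Zbp1, and the falls were Ddit4, Mtarc1 and Ces1g. Without any test, the 4 knockout libraries lay wholly above the 4 wild-type libraries for 180 genes (1.51%) and wholly below for 200 (1.68%). Single pairs differed far more widely. Past 2-fold, of 9467 genes averaging 50 or more normalized reads across the 8 libraries, 366 were higher (3.87%) and 324 lower (3.42%) in the 2 h pair, 402 (4.25%) and 310 (3.27%) in the 6 h pair, 396 (4.18%) and 443 (4.68%) in the 12 h pair, and 369 (3.90%) in each direction in the 24 h pair. The count of 10 depended on the fit: it was 0 in the 8 libraries alone and 0 without a mean-variance trend, 7 with edgeR and 162 with DESeq2. Leaving out the 2, 6, 12 or 24 h pair gave 2, 21, 6 and 12 calls. Ddit4 and Slfn2 were called with each pair left out in turn, Prss32 and Nfkbiz were lost without the 2 h pair, Cd74 and Zbp1 without the 2 h or the 12 h pair, Mtarc1 and Ces1g without the 2, 12 or 24 h pair, and H2-Ab1 with any pair left out.

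**Figure D1:**
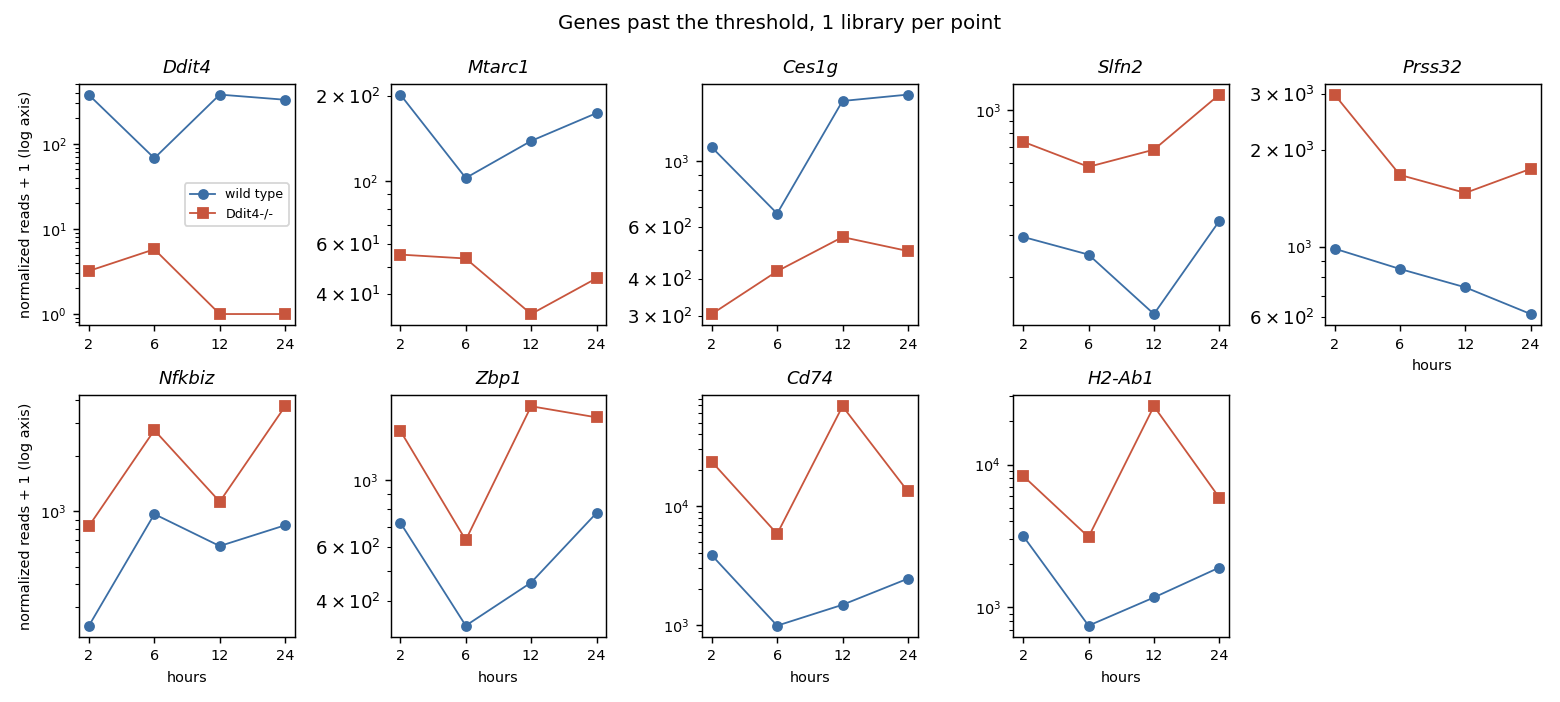
Normalized reads + 1 (log axis, a separate scale for each gene) against hours after doxorubicin for 9 called genes; each point is 1 library and lines only join points of a genotype. In each panel the Ddit4-/- square lies on the same side of the wild-type circle at all 4 times, and Cd74 and H2-Ab1 reach their highest values, 68962 and 25566, in the Ddit4-/- library at 12 h.

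Most genes of MHC class II antigen presentation stood higher in Ddit4-/- at every time, and Cd74 and H2-Ab1 passed the test. These molecules display peptides from ingested proteins to CD4 T cells, and in the small intestine they are made by professional antigen-presenting cells and, under interferon-gamma, by enterocytes and crypt stem cells. Promoters of these genes are known for a shared block of elements that includes the Y box, an inverted CCAAT sequence bound by NF-Y, on which the coactivator Ciita acts. Because most class II genes moved together, 3 of their promoters are shown, as the 250 bases before the RefSeq start site (GRCm38.p6), 5′ to 3′ on the strand of the gene. Capitals mark CCAAT in either orientation, the letters searched for on both strands:
H2-Aa (chr17:34287824-34288073, minus strand): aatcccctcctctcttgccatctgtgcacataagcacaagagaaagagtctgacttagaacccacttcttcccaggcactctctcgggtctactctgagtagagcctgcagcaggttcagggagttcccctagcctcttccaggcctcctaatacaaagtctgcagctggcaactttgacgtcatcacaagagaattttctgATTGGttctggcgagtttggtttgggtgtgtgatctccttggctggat
H2-Eb1 (chr17:34305617-34305866, plus strand): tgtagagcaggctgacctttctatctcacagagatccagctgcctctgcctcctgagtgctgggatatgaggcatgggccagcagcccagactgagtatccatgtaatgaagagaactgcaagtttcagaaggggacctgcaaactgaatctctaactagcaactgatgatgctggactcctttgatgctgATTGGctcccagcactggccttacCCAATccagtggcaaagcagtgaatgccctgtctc
H2-DMb1 (chr17:34152941-34153190, plus strand): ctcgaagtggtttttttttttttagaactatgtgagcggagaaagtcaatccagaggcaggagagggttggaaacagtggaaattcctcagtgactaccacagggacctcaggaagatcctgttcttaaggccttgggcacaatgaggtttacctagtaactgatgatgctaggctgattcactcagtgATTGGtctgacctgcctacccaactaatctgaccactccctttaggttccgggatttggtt
In H2-Aa, H2-Eb1 and H2-DMb1 the inverted form ATTGG was present between 30 and 70 bases before the start. A gene was counted if any of its promoter entries held CCAAT anywhere in the window. By that count CCAAT was found in all 6 class II list genes with an entry, and in 40.4% of the 9579 tested genes with one. Cd74, H2-Ab1 and Ciita had no promoter entry. The 6 include H2-DMb2 and H2-Ob, which did not move with the others, so the count does not separate the genes that rose. For H2-DMa, the entry at chr17:34122582-34122831 lacks CCAAT, and the entry at chr17:34125268-34125517 holds it 198 bases before the start. Such a match describes the letters in this window and is not evidence of binding.

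Cd74, the invariant chain that escorts class II molecules to the endosome, had 3864, 989, 1481 and 2456 normalized reads in wild type at 2, 6, 12 and 24 h and 23609, 5838, 68962 and 13272 in Ddit4-/-. The groups did not overlap, and the knockout library at 12 h stood far above the other 3. The log2 difference was 3.29 ± 0.52 (limma adjusted p = 0.031). H2-Ab1 (mm10, chr17:34257689-34269419, plus strand, 6 exons), a class II beta chain, had 3164, 745, 1174 and 1902 in wild type and 8322, 3113, 25566 and 5864 in Ddit4-/-. Its ranges touched, because the wild-type library at 2 h lay just above the knockout library at 6 h, while each pair on its own was higher in the knockout (log2 difference 2.38 ± 0.41, limma adjusted p = 0.049). Just outside the threshold were the peptide-loading genes H2-DMa (2.17 ± 0.39, adjusted p = 0.07) and H2-DMb1 (2.81 ± 0.52, 0.076), the alpha chain H2-Aa (2.79 ± 0.57, 0.11) and the beta chain H2-Eb1 (2.30 ± 0.47, 0.11), each higher in 4 of 4 pairs. Ciita, the master coactivator of the class, ran at 46.7, 19.5, 10.4 and 49.5 in wild type and 180, 95.4, 712 and 72.9 in Ddit4-/-, without overlap (log2 difference 2.67 ± 0.73, adjusted p = 0.29). Reads of H2-DMa may include those of Brd2, which overlaps it on the opposite strand, since the libraries kept no strand, and the H2 genes resemble one another.

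Of the 11 genes on the class II list, 9 passed the filter of a mean of 10 normalized reads, 2 rose past the threshold, 7 were higher and 1 lower in all 4 pairs, and the median log2 difference was 2.38 against 0.01 over all genes tested. For reference here and for the lists below, 6.41% of all genes were higher and 7.42% lower in all 4 pairs. The members that did not follow were H2-Ob (-2.55) and H2-DMb2 (0.34), the former an inhibitor of peptide loading in B cells and both low in every library. H2-Ob reached 50.6 in the wild-type library at 24 h, the one with the B cell markers, and at most 5.57 in the others. By pair, the list's median was 1.76, 2.06, 4.44 and 1.45 at 2, 6, 12 and 24 h, so the 12 h pair differed most. Without the 12 h pair, Cd74 was still higher by 2.53 (log2) but no longer passed.

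**Figure D2:**
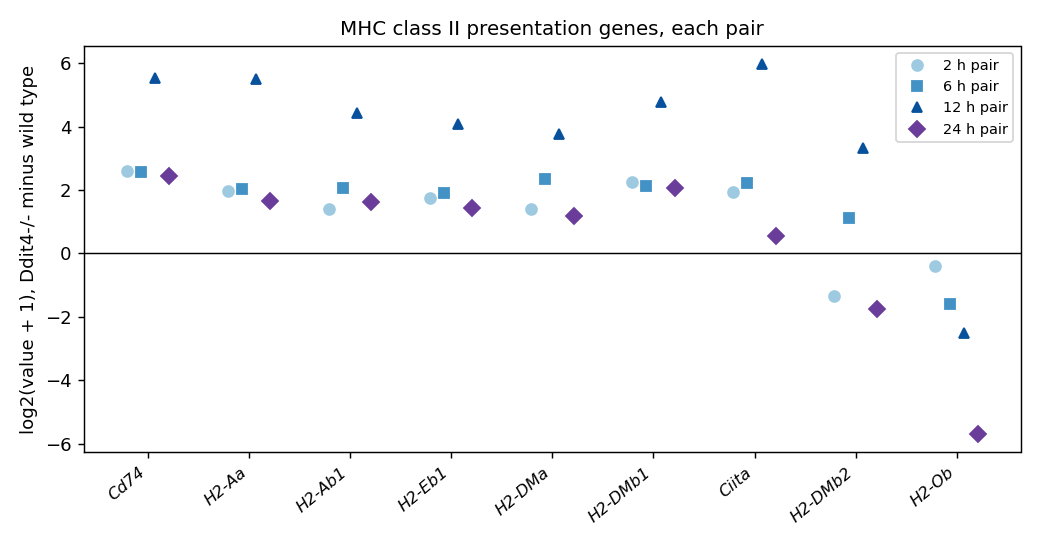
Ddit4-/- minus wild type in log2(value + 1) for each tested MHC class II gene, 1 symbol per pair. Cd74, H2-Aa, H2-Ab1, H2-Eb1, H2-DMa, H2-DMb1 and Ciita lie above 0 in 4 of 4 pairs with the 12 h pair on top, while H2-DMb2 and H2-Ob do not follow.

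The same direction was seen outside this set of pairs. In the untreated pairs the log2 difference of Cd74 was 2.87 ± 0.52 and that of H2-Ab1 2.19 ± 0.41, and in the ad libitum doxorubicin pairs they were 2.68 ± 0.60 and 1.96 ± 0.47. The untreated set has limits. In it 3 knockout libraries had at most 5 Y-linked reads despite their male label, and 2 libraries held pancreatic transcripts. The knockout difference after the fast exceeded that of the untreated pairs by 0.42 ± 0.74 for Cd74 and 0.19 ± 0.58 for H2-Ab1 (limma adjusted p = 0.98 and 0.99), less than 1 standard error in each case.

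Markers of immune cells were examined beside the class II genes. In bulk tissue, more cells of a type and more RNA per cell cannot be told apart. Summed markers of T and intraepithelial lymphocytes, the cytotoxic cells that sit between enterocytes, reached 8550, 4190, 7430 and 7860 normalized reads in wild type and 9350, 8690, 17000 and 9660 in Ddit4-/-, so that the groups did not overlap and the 12 h knockout library was again the highest. None of the 18 genes of that list that passed the filter, of 25, was called, 8 were higher in 4 of 4 pairs, none was lower in all, and the median was 0.72. Among all genes tested, 6.41% were higher and 7.42% lower in 4 of 4 pairs. Nkg7, a protein of cytotoxic granules, stood at 180, 100, 213 and 218 in wild type and 291, 268, 488 and 315 in Ddit4-/- (0.96 ± 0.21, adjusted p = 0.16), without overlap. Itgae, the integrin that holds these lymphocytes to epithelium, ranged over 160 to 252 in wild type and 289 to 643 in Ddit4-/- (0.74 ± 0.20, 0.26), and Thy1, a T cell surface protein, over 12.3 to 33.8 and 37 to 111 (1.53 ± 0.44, 0.3). The chemokine Ccl5 (1.02 ± 0.24, 0.19) and the granzymes Gzma (0.67 ± 0.22, 0.4) and Gzmb (0.70 ± 0.21, 0.33) overlapped between groups. Dendritic cell markers summed to 206 to 393 in wild type and 399 to 827 in Ddit4-/-, most of it Itgae and Itgax, while Xcr1 and Clec9a had at most 2 reads in any library. Macrophage markers summed to 2950 to 4840 and 4290 to 5920, and B cell markers to 17.5 to 388 and 26.2 to 107, with Pax5 and Blk at 0 in all 4 knockout libraries. The 3 tested plasma cell markers summed to 5060 to 9170 in wild type and 6930 to 14800 in Ddit4-/-. Among them Jchain had 867 to 1320 reads in wild type and 2300 to 8783 in Ddit4-/-, while the read ranges of Sdc1 and Xbp1 overlapped. The part of lymphocyte or dendritic cell content in the class II difference was not tested.

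Interferon-responsive genes leaned upward in Ddit4-/-, and 1 of them passed the test. Zbp1 (mm10, chr2:173206612-173218923, minus strand, 8 exons), a sensor of Z-form nucleic acids that can trigger necroptosis, had 722, 330, 458 and 778 normalized reads in wild type and 1453, 633, 1752 and 1610 in Ddit4-/-. Each pair was higher in the knockout although the ranges overlapped through the low 6 h libraries (log2 difference 1.23 ± 0.19, limma adjusted p = 0.022). Of 38 interferon-stimulated genes tested, of 40 on the list, Zbp1 was the single call, 12 were higher and none lower in all 4 pairs, and the median was 0.31. The shares over all genes tested were 6.41% higher and 7.42% lower in all 4 pairs. The transcription factor Irf1 (0.61 ± 0.17, adjusted p = 0.3), the antiviral synthetase Oas1a (0.55 ± 0.17, 0.33) and the restriction factor Trim30a (0.72 ± 0.22, 0.33) were higher in 4 of 4 pairs without passing. The interferon element, read as GAAA, any 2 bases and GAAA again on either strand, occurred in the 250 bases before the start of 13 of 28 listed genes with a promoter entry, and in 3.36% of all tested genes with one. The list holds genes known to respond to interferon, so this share describes the list and not the knockout difference. Zbp1 had no promoter entry, and 0 of the 5 called genes with one held the element. For MHC class I presentation, 24 of 26 genes were tested, none was called, 7 were higher and none lower in 4 of 4 pairs, and the median was 0.26, with the immunoproteasome subunit Psmb9 at 0.60 ± 0.17 (0.31) and the peptide transporter Tap1 at 0.55 ± 0.19 (0.41). The GTPases and chemokines that interferon-gamma induces held no call and no gene of 1 direction in all 4 pairs among 20 tested. Their median was 1.76 in the 12 h pair and -0.16, 0.33 and -0.11 at 2, 6 and 24 h.

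A regulator of the NF-κB response rose. Nfkbiz (mm10, chr16:55811375-55838899, minus strand, 15 exons) encodes IκBζ, a nuclear partner of NF-κB that switches on a later wave of defence genes in epithelium. It had 238, 962, 645 and 837 normalized reads in wild type and 829, 2747, 1124 and 3704 in Ddit4-/-, higher in each pair although the wild-type library at 6 h lay above the knockout library at 2 h (log2 difference 1.56 ± 0.21, limma adjusted p = 0.01). Zc3h12a (mm10, chr4:125118423-125127840, minus strand, 6 exons), the ribonuclease Regnase-1 that degrades inflammatory mRNAs, ran at 228, 327, 124 and 244 in wild type and 563, 743, 453 and 1909 in Ddit4-/-, without overlap but outside the threshold (1.82 ± 0.36, 0.11). The feedback inhibitors Nfkbia and Tnfaip3 were set apart by 1 library, the knockout at 24 h, with 7407 and 2462 against at most 1583 and 985 in the other 7 libraries.

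Slfn2 and Prss32 gave the smallest p-values after Ddit4. Slfn2 (mm10, chr11:83065112-83070678, plus strand, 2 exons), a Schlafen family member that keeps T cells and monocytes quiescent, had 294, 248, 140 and 343 in wild type and 736, 578, 683 and 1160 in Ddit4-/- (log2 difference 1.64 ± 0.20, limma adjusted p = 0.0058). Prss32 (mm10, chr17:23843855-23859779, plus strand, 6 exons), a trypsin-like serine protease, had 984, 850, 744 and 614 and 2989, 1674, 1471 and 1750 (1.27 ± 0.16, 0.0059). Neither gene overlapped between groups, and the lowest knockout library lay above the highest wild-type library. Annotated antisense transcripts overlap both genes, Prss41 overlaps Prss32 on the other strand, and other Schlafen genes are similar to Slfn2, so reads cannot be assigned to 1 strand or copy with certainty. The complement gene C4b, at 32 to 153 in wild type and 167 to 267 in Ddit4-/- (1.56 ± 0.30, 0.091), and the forkhead factor Foxo6, at 69.1 to 118 and 190 to 476 (1.51 ± 0.28, 0.076), were also higher in 4 of 4 pairs and did not pass.

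The mucosal defence genes that respond to NF-κB and cytokines had large differences in single pairs and none that passed. Reg3g, a lectin that kills Gram-positive bacteria near the epithelium, had 3838, 13781, 12731 and 6989 normalized reads in wild type and 155100, 16639, 20868 and 74879 in Ddit4-/-. The knockout libraries at 2 and 24 h were far above all others, those at 6 and 12 h only just above the wild-type range (log2 difference 2.44 ± 0.63, limma adjusted p = 0.24). Nos2, the inducible nitric oxide synthase, ran at 1.17, 0, 0.949 and 2.30 in wild type and 107, 216, 3.58 and 1620 in Ddit4-/-, so it had at most 2.30 normalized reads in the 4 wild-type libraries and was highest in the knockout at 24 h (5.89 ± 1.42, 0.2). Ccl28, an epithelial chemokine for IgA-secreting cells, ranged over 30.6 to 67.9 in wild type and 109 to 618 in Ddit4-/- (2.07 ± 0.47, 0.18), also without overlap. Reg3b followed Reg3g at 2 and 24 h, with 474270 and 244820 against 43954 to 78198 in wild type. Duox2, which makes hydrogen peroxide at the brush border, was at 0, 166, 29.4 and 0 in wild type and 609, 185, 9.84 and 881 in Ddit4-/-, with the knockout far higher at 2 and 24 h. Its maturation factor Duoxa2 reached 1230 in the knockout at 24 h against at most 50.1 in wild type. Reg3a went the other way in 4 of 4 pairs (-0.92 ± 0.27, 0.32). Of the 18 genes tested, of 25 listed, 6 were higher and 1 lower in all 4 pairs, 4 did not overlap with the knockout above, and the median was 0.50. Over all genes tested, those 3 shares were 6.41%, 7.42% and 1.51%. The knockout library at 2 h also had the most Paneth cell marker reads, 32300 summed against 2880 to 8380 in the other 7 libraries; the part of that library's makeup in these differences was not tested.

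**Figure D3:**
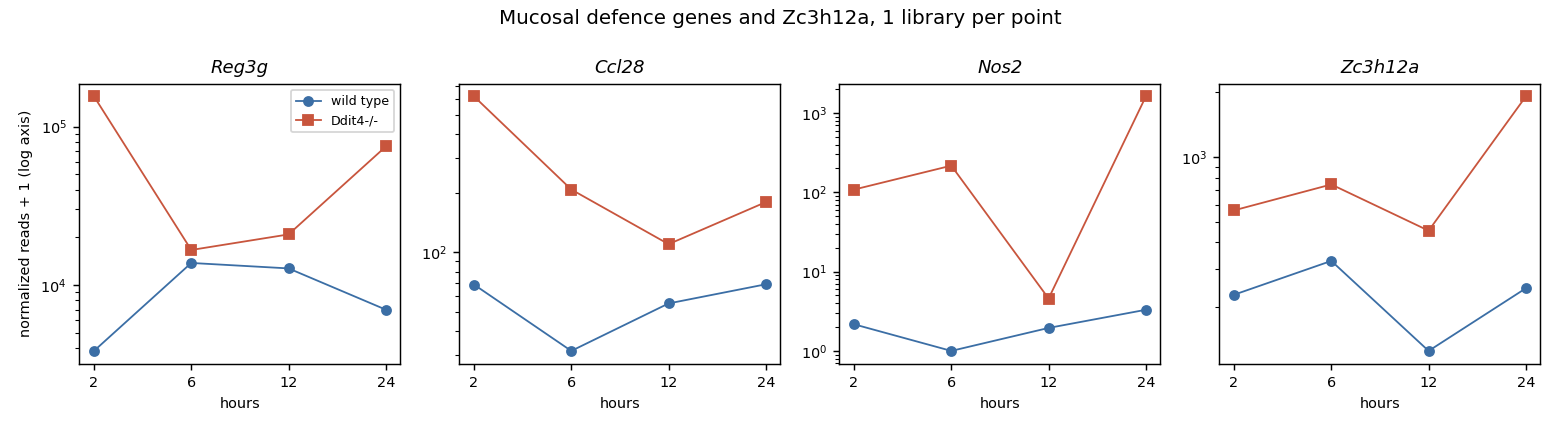
Normalized reads + 1 (log axis, separate scales) against hours after doxorubicin for Reg3g, Ccl28, Nos2 and Zc3h12a, 1 library per point. The 4 Ddit4-/- squares lie above the 4 wild-type circles in each panel, with Reg3g highest at 2 h (155100) and Nos2 highest at 24 h (1620).

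Among metabolic genes, 2 enzymes fell. Mtarc1 (mm10, chr1:184786767-184811313, minus strand, 9 exons, annotated under its older symbol Marc1), a mitochondrial amidoxime-reducing enzyme linked to liver fat, had 201, 102, 138 and 173 in wild type and 54.2, 52.5, 33.1 and 44.6 in Ddit4-/-. The highest knockout value was below the lowest wild-type value (log2 difference -1.69 ± 0.24, limma adjusted p = 0.016). Ces1g (mm10, chr8:93302369-93337308, minus strand, 14 exons), a carboxylesterase that hydrolyses lipids and drugs, had 1114, 664, 1599 and 1680 and 303, 423, 553 and 496, also without overlap (-1.45 ± 0.24, 0.037); it belongs to a cluster of similar genes. Lower genes just outside the threshold included Rdh16f2, a retinol dehydrogenase family member (-1.52 ± 0.28, 0.076), Acsl6, an acyl-CoA synthetase (-2.35 ± 0.46, 0.1), the cytochrome P450 Cyp2j9 (-1.75 ± 0.36, 0.11) and Mccc1, a subunit of the carboxylase that breaks down leucine (-1.70 ± 0.32, 0.088). Myom3, of the muscle sarcomere (-2.03 ± 0.41, 0.11), Bok, of the BCL2 family (-1.30 ± 0.27, 0.11), and Tia1, an RNA-binding protein of stress granules (-1.12 ± 0.24, 0.13), were lower in 4 of 4 pairs as well. On the list of xenobiotic metabolism and drug efflux, 25 of 27 genes were tested, none was called, 3 were lower and none higher in all 4 pairs, and the median was -0.25. By log2 difference 18 of the 25 were lower and 7 higher, the largest rise being 1.64. Cyp2c29 gave the widest difference of the list, with 14659, 6703, 3779 and 4948 in wild type and 159, 2096, 708 and 3326 in Ddit4-/- (-2.79 ± 0.70, 0.23). Cyp3a11, the main drug-metabolizing P450 of the mouse gut (-1.09 ± 0.28, 0.23), and Cyp2j6 (-0.99 ± 0.28, 0.31) were also lower.

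No other transcript of the pathway that Ddit4 restrains passed the test. All 28 genes of the list of mTORC1 components and brakes were tested, 5 were lower and none higher in all 4 pairs, and the median was -0.17; Ddit4 itself is among the 28 and among the 5. Rragd, a Rag GTPase that carries the amino acid signal to mTORC1 and is induced in starvation, was at 3302, 2968, 2957 and 4104 in wild type and 2395, 2744, 2812 and 1986 in Ddit4-/-, without overlap (-0.42 ± 0.14, 0.41). Eif4ebp3, a repressor of translation (-1.25 ± 0.51, 0.52), and Deptor, an inhibitor bound to mTOR (-0.50 ± 0.23, 0.59), overlapped between groups. These are transcript levels, and mTORC1 activity was not measured.

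No p53 target passed the test. Of 39 p53 targets tested, of 40 listed, 2 were higher and 1 lower in 4 of 4 pairs, and the median was -0.11. By pair the median was 0.04, 0.14, -0.38 and -0.31 at 2, 6, 12 and 24 h. At these times 20, 21, 13 and 13 of the 39 were higher in Ddit4-/-. With 1 library per genotype and time, these medians describe pairs of libraries. Cdkn1a was at 7361, 5326, 6210 and 5588 in Ddit4-/-, with differences of -0.14, 0.14, -0.61 and -0.36 in the 4 pairs (-0.24 ± 0.13, limma adjusted p = 0.66). Mdm2, which degrades p53, was at 3208, 1292, 1445 and 1145 in wild type and 1644, 1260, 1710 and 1231 in Ddit4-/-, apart at 2 h and close later. Ccng1 differed by -0.01 ± 0.12, the tightest interval of these genes, and the death genes Bax and Bbc3 by -0.24 ± 0.23 and -0.57 ± 0.47, with adjusted p of 0.99, 0.85 and 0.81. The stem cell markers Olfm4 and Lgr5 and the proliferation markers Mki67 and Top2a overlapped between genotypes. Olfm4 was at 998, 496, 77.8 and 139 in wild type and 1468, 299, 85 and 17 in Ddit4-/- (-0.75 ± 0.44, 0.69), Lgr5 had at most 27.6 in any library, and Mki67 and Top2a differed by -0.27 ± 0.38 and 0.12 ± 0.39. Olfm4 was the lowest of the 17 stem cell genes tested, of 18 listed. In that list 9 were higher and 8 lower, none was called, and the median was 0.04. By pair its median was 0.51, -0.06, 0.28 and -0.82 at 2, 6, 12 and 24 h. In all 4 pairs 3 were higher and none lower.

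Splitting the 4 pairs into early (2 and 6 h) and late (12 and 24 h) asked whether the knockout difference changed with time. Angptl4, a secreted inhibitor of lipoprotein lipase that fasting induces, had 970, 221, 3564 and 1699 normalized reads in wild type and 813, 256, 178 and 79.4 in Ddit4-/-. The genotypes were close at 2 and 6 h, and at 12 and 24 h the knockout was different by -4.32 and -4.40 on the log2 scale. The late difference minus the early one was -4.34 ± 0.51 (limma adjusted p = 0.011), the only gene of 11939 that passed this test (0.00838%), while 1570 had an unadjusted p under 0.05 (13.2%). The call was lost without the 6 h pair and without the 24 h pair, which left 0 calls each, and it was kept among 3 calls without the 2 h pair and 63 without the 12 h pair.

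Values of 3 other fasting genes, none of which passed, were also lower in Ddit4-/- at 12 and 24 h. Pck1, the gluconeogenic enzyme, had 2144, 1283, 26010 and 32583 in wild type and 1267, 2866, 3145 and 1062 in Ddit4-/-, and its late minus early difference of -4.19 ± 0.77 just missed (adjusted p = 0.069). Pdk4, the kinase that spares glucose by blocking pyruvate dehydrogenase, had 1189, 592, 7499 and 7648 and 443, 1245, 1988 and 834 (-2.38 ± 0.61, 0.15), and Klf15, a glucocorticoid-induced factor of fasting, 258, 66.9, 660 and 375 and 59.7, 94.2, 72.5 and 80.2 (-1.89 ± 0.78, 0.31). Pck1, Pdk4 and Klf15 were also lower in the knockout at 2 h, and at 6 h all 3 were higher. On the list of PPAR-alpha, ketogenesis and fat oxidation, which includes Angptl4 and Pdk4, 25 genes were tested, the median late minus early difference was -0.11, and 12 of the 25 were higher late. The untreated fed and fasted libraries put these levels in context, 1 for each genotype and state. Both Ddit4-/- ones had at most 5 Y-linked reads despite their male label, and the fasted one also held pancreatic transcripts. Pck1 stood at 1323 in the fed and 22110 in the fasted wild-type library, and at 2555 and 32970 in the corresponding Ddit4-/- libraries. The wild-type libraries at 12 and 24 h after doxorubicin, though labelled refed, thus had Pck1 above the level of the fasted wild-type library, and the Ddit4-/- libraries had it near the fed level. Pdk4 compared in the same way, with 6873 in the fasted wild-type library and 1314 in the fed Ddit4-/- library. Food eaten by the mice was not recorded in the labels, and its part in these differences was not tested. In the ad libitum doxorubicin set, Pck1 at 12 and 24 h was 17660 and 21930 in wild type and 10920 and 7841 in Ddit4-/-. Ppara, the receptor that drives fat oxidation, was lower at all 4 times (436, 355, 432 and 420 against 247, 228, 251 and 300; -0.68 ± 0.22, adjusted p = 0.37).

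**Figure D4:**
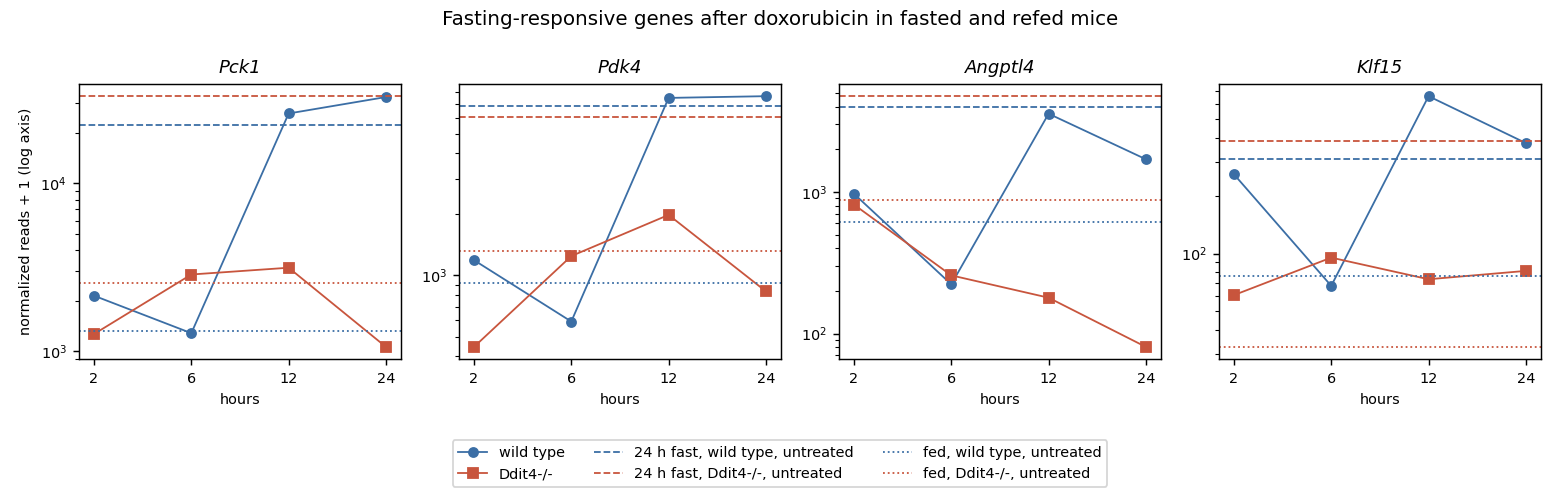
Normalized reads + 1 (log axis, separate scales) against hours after doxorubicin for Pck1, Pdk4, Angptl4 and Klf15, with horizontal lines for the untreated fed (dotted) and 24 h fasted (dashed) libraries of each genotype. Both untreated Ddit4-/- libraries shown had at most 5 Y-linked reads despite their male label, and the fasted one held pancreatic transcripts. Wild-type values at 12 and 24 h are above the Ddit4-/- values in all 4 panels, for Pck1 26010 and 32583 against 3145 and 1062.

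The opposite change with time, a knockout difference more positive late than early, was seen in genes just outside the threshold. At a limma adjusted p under 0.1, the late minus early difference was positive for 53 genes (0.444%) and negative for 19 (0.159%). The 4 with the smallest p after Angptl4, named after their values were seen, were Hif1a, Litaf, Rhob and Itgb6. Hif1a, the oxygen-regulated transcription factor, had 2266, 5636, 1858 and 1709 in wild type and 1296, 2549, 3587 and 5997 in Ddit4-/- (late minus early 2.35 ± 0.37, limma adjusted p = 0.053). Litaf, an endosomal protein induced by lipopolysaccharide, gave 1.89 ± 0.28, the stress-induced GTPase Rhob 2.46 ± 0.37 and the epithelial integrin Itgb6 2.05 ± 0.32, each with an adjusted p of 0.053. For all 4, the wild-type library at 6 h was the highest of its genotype and the knockout library at 24 h was the highest of its own.

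Whether the knockout difference depended on the fast or the drug was tested against the other 2 sets of pairs. No gene passed for the fasted against the ad libitum doxorubicin pairs (0%; limma, and 0 with edgeR and with DESeq2), and 312 had an unadjusted p under 0.05 (2.61%). Against the untreated pairs no gene passed either with limma (0%), with 509 at an unadjusted p under 0.05 (4.26%), 0 with edgeR and 17 with DESeq2. The called genes named above fell into 2 kinds by their values. For Zbp1, Cd74 and H2-Ab1 the 3 estimates were similar, Zbp1 at 1.23 ± 0.19 in the fasted doxorubicin pairs, 1.0 ± 0.22 in the ad libitum doxorubicin pairs and 1.03 ± 0.19 in the untreated pairs. For Slfn2, Prss32, Nfkbiz, Mtarc1 and Ces1g the estimate was largest after the fast and doxorubicin. Slfn2 was at 0.59 ± 0.23 in the ad libitum doxorubicin pairs and 0.48 ± 0.20 in the untreated pairs. The differences from the untreated pairs were 1.17 ± 0.28 for Slfn2, 0.95 ± 0.23 for Prss32 and 1.16 ± 0.30 for Nfkbiz, with limma adjusted p of 0.98, 0.98 and 0.98. Genes called for 1 set are likely to have their largest estimate there, so this order carries no test of its own. DESeq2 did call these 3 genes against the untreated pairs. Of the 8 untreated libraries, 3 knockout ones had at most 5 Y-linked reads despite their male label and 2 hold pancreatic transcripts, which touches this contrast directly. Of the 17 DESeq2 calls, 4 were Y-linked (Uty, Kdm5d, Ddx3y and Eif2s3y).

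**Figure D5:**
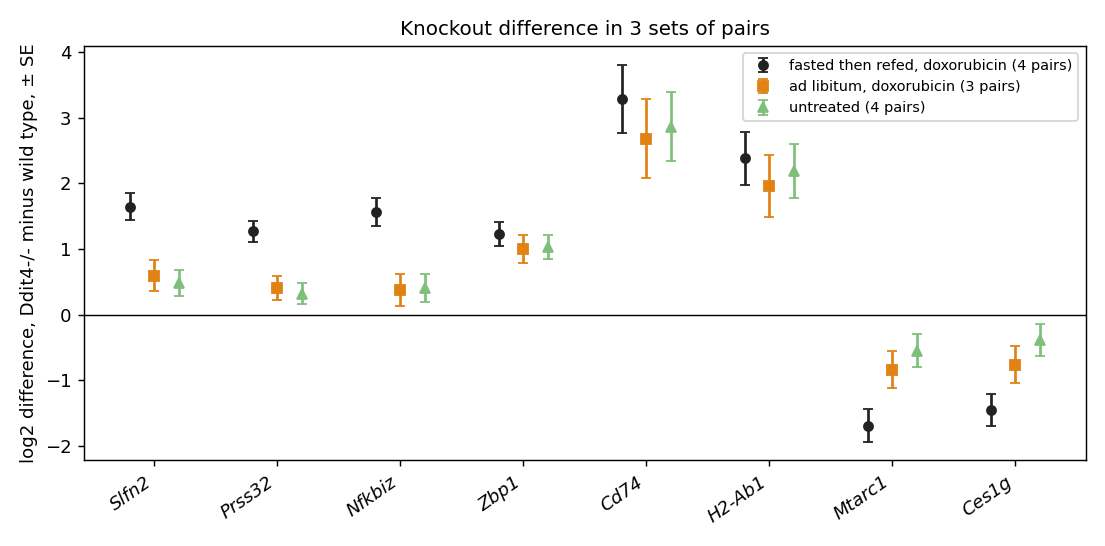
Log2 difference, Ddit4-/- minus wild type, ± 1 standard error from the limma fit, for 8 called genes in 3 sets of pairs. Cd74, H2-Ab1 and Zbp1 have similar values in the 3 sets, and Slfn2, Prss32, Nfkbiz, Mtarc1 and Ces1g lie farthest from 0 in the fasted doxorubicin pairs that were used to choose them.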

How the data were processed

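The deposited table holds signal values, read counts divided by 1 factor per library and not log transformed, for 16259 genes in 23 libraries. Per the labels, poly-A RNA from whole tissue went into libraries without strand information and was sequenced as read pairs; alignment to mm10 with STAR after trimming with Trim Galore, and DESeq2, are listed in the submitters' processing notes. Versions, the annotation and read assignment are not given in the sources used here. Values were whole multiples of 1 step per library, and 100% came within 0.01 of a whole read, which gave the reads used for edgeR and DESeq2.

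Genes with a mean of at least 10 over the 23 libraries (11939) were fitted as log2(value + 1) with limma 3.58.1 (eBayes with a trend, two-sided, R 4.3.3). The model held 12 conditions of feeding, drug and time and a genotype difference in each of 3 sets of pairs (8 residual degrees of freedom; 7 with the late term). Adjustment was Benjamini-Hochberg over all genes, with a threshold of 0.05. Pairs were matched on time as labelled, since no replicate numbers are given. The script was tested on simulated data. edgeR 4.0.16 and DESeq2 1.42.0, other pseudocounts, filters, normalizations, library subsets and each pair left out were tried.

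Genes were named by a rule: Ddit4, up to 12 rises and 12 falls (those past the threshold, then the smallest p with an absolute log2 difference of at least 1, 1 direction in 4 pairs and a mean of at least 50), up to 4 members per list with the smallest p, and a set of markers; the text gives a selection, and some genes are not reported here. The comparison, the lists and the rule were chosen with earlier results of these data known. Gene positions are from GENCODE for mm10 and promoters from RefSeq, for GRCm38.p6.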

Additional observations from a re-analysis of the deposited data

Results flagged for a closer look

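In 8 of the 100 genes examined, 1 pair's knockout difference stood apart from the other 3; chance alone gives about 5% of groups of 4. The 12 h pair was the outlying one for Cd74 (5.54 on the log2 scale), H2-Aa (5.51), H2-DMb1 (4.79), Thy1 (3.07), Zbp1 (1.93) and Tap1 (1.36), each time with a larger rise than in the other pairs. These genes share the 2 libraries of that pair, so they are not independent of one another. The 6 h pair stood apart for Mtarc1 (-0.94, the smallest fall of the 4) and for the mitotic gene Hmmr (3.22), which had no reads in the wild-type library at 6 h. The knockout difference of Angptl4 changed between the early and late pairs, by -4.34 on the log2 scale with limma.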

How the results depend on the processing

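The count of 10 genes called between genotypes became 6 without a filter on low values, 0 in the 8 libraries alone, 4 in the 15 doxorubicin libraries, 5 with array weights, 0 without a trend, 162 with DESeq2 and 4 when the 3 libraries lacking Y-linked reads were dropped. In the 8 libraries without the time pairs as a replicate block it was 1, against 0 in the same 8 with the block, and with 1 pair left out it ranged from 2 to 21. The late minus early count of 1 became 5 with a pseudocount of 8, 4 with a mean of at least 50, 0 in the 15 doxorubicin libraries, 0 without a trend, 427 with DESeq2, 0 in the 8 libraries without the replicate block (1 with it), 3 without the libraries lacking Y-linked reads, 13 without the 2 with pancreatic transcripts, and 0 to 63 with 1 pair left out. The count of 0 against the untreated pairs became 4 with array weights and 4 without the libraries with pancreatic transcripts, in both cases Ddx3y, Eif2s3y, Kdm5d and Uty, which are Y-linked, and 17 with DESeq2, these 4 among them. It became 11 when the libraries lacking Y-linked reads were dropped, which leaves 1 untreated pair, whose wild-type library holds pancreatic transcripts; the 11 include the pancreatic genes Cela1, Clps, Pnlip, Pnliprp1 and Rnase1. The count against the ad libitum pairs was 0 in all settings run. The cause of the other changes was not tested. With 1 pair left out, 4 genes not past the threshold changed sign: Litaf (-0.13 to 0.72), Rhob (-0.06 to 1.12), Bax (-0.45 to 0.10) and Bbc3 (-1.12 to 0.08). Genes whose difference was smaller than its standard error were not followed across settings. With 1 library per genotype and time, an animal and a time cannot be told apart.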

Other observations

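Several cell type and growth lists changed direction across the 4 pairs. Paneth cell markers had a median log2 difference of 2.34, 0.73, -0.27 and -0.90 at 2, 6, 12 and 24 h, G2/M and mitosis genes 1.09, 0.04, -0.20 and -0.55, and cytosolic ribosomal proteins 0.48, 0.17, -0.47 and -0.05. Lysozyme, Lyz1, a Paneth cell product, followed this with 2236, 1178, 847 and 2160 normalized reads in wild type and 6685, 1950, 702 and 1106 in Ddit4-/-. No gene of the 3 lists was called, and with 1 library per genotype and time these medians describe pairs of libraries. Goblet cell markers had 9 of 13 genes higher and none lower in 4 of 4 pairs, a median of 0.29 and no call, with the goblet peptide Spink4 at 1407, 630, 906 and 1234 in wild type and 4296, 1447, 1118 and 1961 in Ddit4-/- (0.94 ± 0.27, limma adjusted p = 0.3). Among all genes tested, 6.41% were higher and 7.42% lower in 4 of 4 pairs.

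Of 51 tested protein-coding genes within 5 Mb of Ddit4 on chromosome 10, none was called with limma, 2 lay wholly below wild type and none wholly above, and the median log2 difference was -0.01. At an unadjusted p under 0.05 there were 5. Differences ranged from -1.03 for Pbld1 to 1.42 for the lymphocyte gene Prf1. Over all genes tested, 1.68% lay wholly below wild type, 1.51% lay wholly above, and 8.39% had an unadjusted p under 0.05 with limma.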
